A study of Sordaria macrospora with 16 samples.

Results

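Constitutive peak regions of the *Sordaria macrospora* genome were defined by the presence of a peak in every library of the data set. Overlapping peaks of all 8 peak lists were merged into 7932 regions, of which 6937 were shorter than 5 kb. Of these, 819 had a peak of at least 1 bp in each of the 8 lists, and these 819 regions are described here. Another 572 regions with peaks in all lists measured 5 kb or more and were kept apart.

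*S. macrospora* is a filamentous ascomycete, and its mycelium was compared between Δasf1 (delta-asf1 in the labels), in which the gene for the histone chaperone ASF1 has been replaced by a hygromycin resistance cassette, and the wild type. Chromatin was fixed with formaldehyde for 15 min, digested with micrococcal nuclease (230 U/ml, 105 min) and precipitated with antibodies against histone H3 trimethylated at lysine 27 (H3K27me3) or against histone H3. The 4 groups, H3K27me3 in Δasf1, H3K27me3 in the wild type, H3 in Δasf1 and H3 in the wild type, had 2 biologically independent replicates each. Growth in liquid medium at 27°C lasted 3 days for Δasf1 and 2 days for the wild type, so growth time and strain cannot be told apart. In Δasf1 strains a segment of chromosome 2 is also duplicated.

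H3 is a core protein of every nucleosome, so a peak of the H3 antibody marks DNA recovered with nucleosomes after nuclease digestion. H3K27me3 is laid down by Polycomb repressive complex 2 and is known from silent chromatin, in several fungi often near chromosome ends. ASF1 carries H3 and H4 dimers and hands them on during nucleosome assembly at replication and transcription. H3K27me3 nucleosomes contain H3, so both antibodies can recover the same DNA.

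The 8 lists held 4401 to 6525 peaks and covered 14.7% to 31.2% of the genome of 39.4 Mb. Lists of replicate 1 ended at a −log10 q of 2.02 to 2.05 and lists of replicate 2 at 1.00 to 1.03, so the authors' cutoff differed with the replicate number in both strains. The lists hold no read counts, and depth is unknown.

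The 819 constitutive regions were 11.8% of the regions shorter than 5 kb. The numbers of such regions with peaks in 1, 2, 3, 4, 5, 6 and 7 lists were 1355, 786, 654, 673, 743, 865 and 1042. The distribution was therefore not a simple decline, since regions found in 7 or in 8 lists were more frequent than those found in 3 or in 4. Among the 1042 regions that lacked a peak in 1 list, the missing list was H3K27me3 of wild-type replicate 2 in 509 cases (48.8%) and H3 of Δasf1 replicate 2 in 246 (23.6%). H3 of wild-type replicate 2 was the missing list in 9 regions. Without H3K27me3 of wild-type replicate 2, 1389 regions under 5 kb had a peak in each of the other 7 lists.

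Constitutive regions were 633 to 4990 bp wide, with a median of 3463 bp (quartiles 2480.5 and 4209.5 bp). Together they spanned 2.68 Mb, 6.79% of the genome. Regions in more lists were wider, with median widths of 691 bp for 1 list, 1566 bp for 4 lists and 2668.5 bp for 7 lists. Constitutive regions made up 1.06% of all regions under 1 kb and 44.8% of those from 4 kb to the limit of 5 kb. Merging joins peaks end to end, and the width limit removes the widest regions, so width and number of lists are not independent. The widest regions inside the limit measured 4984, 4988 and 4990 bp, and the first 3 constitutive regions outside it measured 5002, 5005 and 5008 bp.

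A peak in every list did not always mean a base common to all lists. In 553 of the 819 regions (67.5%) at least 1 bp was covered by peaks of all 8 lists, hereafter the core, and in 266 regions there was no such base. Of these 266, 205 contained a stretch covered by 7 lists, 52 reached 6 lists and 9 reached 5 or fewer. Cores had a median length of 443 bp (quartiles 164 and 729 bp) and the longest measured 2023 bp. In 245 regions the core was 500 bp or longer, and in 46 it was at least 1000 bp. Cores summed to 267 kb or 9.98% of the length of the constitutive regions, whereas 61.1% of that length lay under peaks of at least 4 lists and 23.8% under peaks of at least 7.

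**Figure D1:**
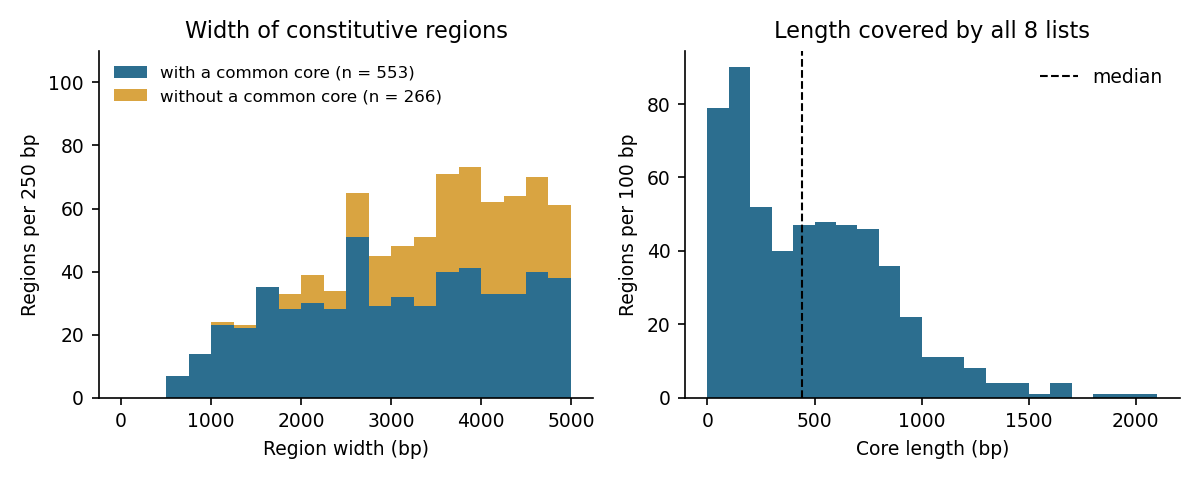
Left, number of constitutive regions by region width in bp, split into regions with (blue) and without (yellow) a stretch covered by all 8 lists. Right, number of regions by core length in bp for the 553 regions with a core, with the median of 443 bp dashed; regions without a core were mostly the wider ones, and cores were mostly shorter than 1000 bp.

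Regions with a core had a median width of 3087 bp and those without a core 3842.5 bp. All 21 constitutive regions under 1 kb had a core, against 56.0% of the 257 regions of 4 kb or more. Core length hardly followed region width among the 553 regions with a core (Spearman coefficient 0.015), whereas over all 819 regions, with absent cores counted as 0 bp, the coefficient was −0.21. These coefficients are descriptions over regions that share the same 8 libraries. In 417 regions each list had exactly 1 peak, and 77.0% of these had a core, against 57.7% of the 402 regions in which at least 1 list had several peaks. In 67 regions (8.18%) the peaks of every list covered at least 50% of the width. These 67 had a median width of 1483 bp and a median core of 824 bp.

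The longest core lay in chr4:2311576-2314537, where all 8 lists shared the 2023 bp from 2311656 to 2313678. This region overlapped the protein-coding genes SMAC4_08878 and SMAC4_08877. H3K27me3 peaks covered 96.2% and 100% of it in Δasf1, against 97.2% and 95.04% in the wild type. H3 peaks covered 98.2% and 100% in Δasf1, against 99.4% and 70.9% in the wild type. Peaks thus filled nearly the whole region in every library except H3 of wild-type replicate 2. The next longest cores measured 1920 bp in chr1:2050716-2053505 (SMAC4_05379 and SMAC4_05378) and 1830 bp in chr4:3895023-3899179 (SMAC4_02214, SMAC4_02213 and SMAC4_02212).

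The longest cores of the other chromosomes were 1624 bp in chr2:687053-691490 (in several parts, SMAC4_05546, SMAC4_05547 and SMAC4_12899), 1416 bp in chr3:4095051-4096671 (SMAC4_01036), 1681 bp in chr5:3330290-3333581 (SMAC4_02474), 1343 bp in chr6:2399668-2403810 (SMAC4_08294 and SMAC4_08293) and 1493 bp in chr7:643498-648254 (SMAC4_09312 and SMAC4_09311). The chromosome 3 region was the most uniform of these, since its core took up 87.4% of its 1621 bp and lay over a single gene. The narrowest constitutive regions were chr7:2412798-2413430 (633 bp, SMAC4_06135), chr1:2106261-2106930 (670 bp, SMAC4_06798) and chr6:2885793-2886499 (707 bp, SMAC4_03611). Each of them lay over 1 protein-coding gene, with cores of 242, 504 and 459 bp.

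In the constitutive regions, the enrichment over background given in the lists was modest. The highest peak of a region had a median fold enrichment of 1.28 in the weakest of its lists and 1.49 in the strongest. The region with the highest value in its weakest list was chr2:5939046-5942326, which overlapped SMAC4_09142. Its H3K27me3 fold enrichment was 1.68 and 1.58 in Δasf1, against 1.55 and 1.54 in the wild type. For H3 it was 1.68 and 1.65 in Δasf1, against 1.58 and 1.55 in the wild type. Fold enrichment belongs to its own list and is not scaled between lists, so these values are given side by side without a comparison of the strains. It was followed by chr1:230304-235009 (SMAC4_09579 and SMAC4_13000) and chr6:473233-476172 (SMAC4_05842 and SMAC4_05843), where the weakest lists had fold enrichments of 1.45 and 1.42.

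It was next asked how much of the constitutive regions each library covered. H3K27me3 peaks covered 56.8% and 60.5% of the summed length in Δasf1, against 49.4% and 41.9% in the wild type. The strains did not overlap, with a mean of 58.6 ± 2.58% for Δasf1 against 45.6 ± 5.32% for the wild type (SD, n = 2 each). The difference of 13.0 percentage points exceeded the pooled SD of 4.18 points, but the exact two-sided permutation test gave p = 0.333, the smallest that 6 assignments of 4 libraries allow. Δasf1 was higher by 7.43 points within replicate 1 and by 18.6 points within replicate 2. The covered share was higher in Δasf1 in 63.6% of the 819 regions within replicate 1 and in 71.8% within replicate 2. In the 397 other regions under 5 kb with a peak in all 4 H3K27me3 lists, the covered shares were 52.0% and 56.0% in Δasf1, against 45.5% and 45.5% in the wild type. Of the whole genome, the H3K27me3 lists covered 22.2% and 24.9% in Δasf1, against 17.7% and 18.3% in the wild type. The strains thus did not overlap there either. Whether the difference in the constitutive regions exceeds that of the whole lists was not tested.

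For H3, peaks covered 62.0% and 45.2% of the constitutive length in Δasf1, against 54.4% and 68.7% in the wild type. Here the strains overlapped, with a mean of 53.6 ± 11.9% for Δasf1 against 61.6 ± 10.1% for the wild type (SD, n = 2 each). The difference of −7.99 points was smaller than the pooled SD of 11.02 points (exact two-sided permutation p = 0.667). Its sign depended on the replicate, with 7.55 points within replicate 1 and −23.5 points within replicate 2. Without H3 of Δasf1 replicate 2 it was 0.0350 points, and without H3 of wild-type replicate 2 it was −0.795 points. No strain difference in the H3 coverage of these regions was therefore detectable with 2 replicates. Of the whole genome, the H3 lists covered 24.3% and 14.7% in Δasf1, against 20.8% and 31.2% in the wild type. The H3 libraries thus had the same order in both measures.

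**Figure D2:**
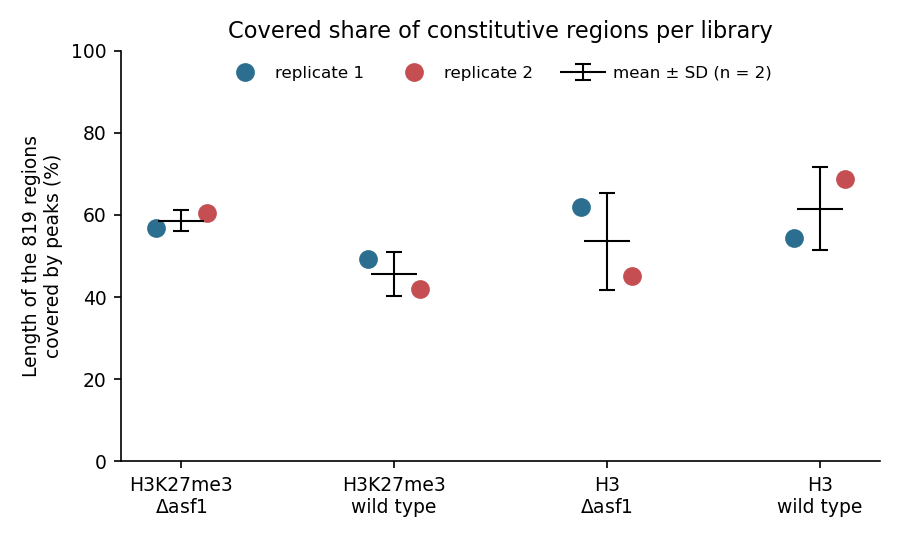
Share of the summed length of the 819 constitutive regions covered by peaks (percent) in each library, grouped by antibody and strain, with replicate 1 in blue, replicate 2 in red and the group mean ± SD in black (n = 2). The Δasf1 libraries of H3K27me3 (56.8% and 60.5%) lie above those of the wild type (49.4% and 41.9%), whereas the H3 libraries of both strains overlap.

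Region by region, 280 of the 819 (34.2%) had a higher H3K27me3 covered share in both Δasf1 libraries than in both wild-type libraries. The same held for 30.4% of the 1216 regions under 5 kb with a peak in all 4 H3K27me3 lists, of which the constitutive regions are the larger part. The covered share was lower in both Δasf1 libraries in 62 regions (7.57%), against a background of 8.72%. For H3, 70 regions (8.55%) were higher in both Δasf1 libraries, against 8.82% of 1882 regions, and 170 regions (20.8%) were lower, against 20.1%. Because these backgrounds include the constitutive regions, the rest were also counted alone. H3K27me3 was higher in both Δasf1 libraries in 22.7% and lower in 11.1% of the other 397 regions, and H3 was higher in 9.03% and lower in 19.6% of the other 1063. The constitutive regions thus lay above the other 397 for higher H3K27me3 coverage and below them for lower H3K27me3 coverage. This difference was not tested, and the sets were not matched for width.

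The largest non-overlapping difference for H3K27me3 was found in chr6:1356778-1360287, over SMAC4_06024. Peaks covered 96.9% and 100% of it in Δasf1, against 12.3% and 19.1% in the wild type. H3 peaks covered 65.0% and 32.1% of the same region in Δasf1, against 70.6% and 99.5% in the wild type. Nearly full H3K27me3 coverage in Δasf1 thus faced short peaks in the wild type, and for H3 the order of the strains was the opposite. In chr3:2860983-2863530 (SMAC4_04671 and SMAC4_04672), H3K27me3 peaks covered 98.4% and 95.1% in Δasf1, against 25.98% and 19.9% in the wild type. There, H3 peaks covered at least 93.5% in all 4 libraries.

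The opposite pattern was found in chr1:230304-235009, a region also among those with the highest fold enrichment. H3K27me3 peaks covered 18.7% and 24.8% of it in Δasf1, against 98.3% and 100% in the wild type. H3 peaks covered 38.5% and 19.0% in Δasf1, against 38.5% and 38.1% in the wild type, so that H3K27me3 peaks extended well beyond the H3 peaks in the wild type only. In chr4:369501-373596 (SMAC4_13600), H3K27me3 peaks covered 6.69% and 37.6% in Δasf1, against 98.0% and 99.3% in the wild type.

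For H3, chr2:3312345-3314523 (SMAC4_06519) had covered shares of 97.8% and 72.7% in Δasf1, against 11.3% and 15.0% in the wild type. In chr7:3584515-3587205 (SMAC4_09483) they were 100% and 98.2% in Δasf1, against 46.2% and 11.7% in the wild type. Lower H3 coverage was found in chr5:358344-362614 (SMAC4_07806), with 31.8% and 14.3% in Δasf1, against 86.5% and 100% in the wild type, and in chr1:6322407-6325110 (SMAC4_01343), with 25.3% and 26.1% in Δasf1, against 82.3% and 97.2% in the wild type. These regions were selected on the size of the difference, and no test was made of single regions.

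The fold enrichment in constitutive regions was then set against that of the whole list. On a log2 scale, the median over the regions minus the median of the list was 0.032 and 0.024 for H3K27me3 in Δasf1, against 0.019 and −0.011 in the wild type. For H3 it was 0.039 and 0.014 in Δasf1, against 0.033 and 0.029 in the wild type. The strain difference was 0.024 for H3K27me3 (exact two-sided permutation p = 0.333) and −0.0048 for H3 (exact two-sided permutation p = 1). The fold enrichments of a list spanned a narrow range, with a distance of 0.072 to 0.096 between the log2 quartiles. The share of constitutive regions above the median of the list was 58.9% to 70.7% in 7 libraries and 41.9% in H3K27me3 of wild-type replicate 2. A region entered with its highest peak, whereas the median of the list was taken over all single peaks. Where a list had several peaks in a region, this raised the value of the region. Of the 819 regions, 80.1% to 89.1% had 1 peak in a list.

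H3K27me3 covered less of these regions than H3 in 3 of the 4 pairs of libraries with the same strain and replicate number. The difference was −5.17 points in Δasf1 replicate 1, 15.3 points in Δasf1 replicate 2, −5.05 points in wild-type replicate 1 and −26.9 points in wild-type replicate 2. The share of the whole genome covered by each list had the same order of antibodies in all 4 pairs. The positions of the peaks of both antibodies were compared in the same pairs, by the median distance between the midpoints of the covered stretches and by the share of the length covered by either library that was covered by both. In Δasf1 the midpoints were 185 bp apart in replicate 1, with 64.6% of the length shared, and 471.5 bp apart in replicate 2, with 44.0% shared. In the wild type they were 272.5 bp apart in replicate 1, with 56.1% shared, and 521 bp apart in replicate 2, with 38.2% shared. The highest overlap among all 28 pairs of libraries was thus that of Δasf1 replicate 1. For comparison, the H3K27me3 replicates shared 52.2% in Δasf1 and 38.1% in the wild type, and the H3 replicates 46.0% and 56.0%. The overlap between antibodies was thus above that between H3K27me3 replicates in Δasf1 replicate 1 and below it in Δasf1 replicate 2. In the wild type it was above that between H3K27me3 replicates in replicate 1 and nearly equal to it in replicate 2.

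H3K27me3 of wild-type replicate 2 stood apart from the other libraries. Its 7 overlaps with other libraries ranged from 35.5% to 38.9%, against 43.1% to 64.6% among the other 7 libraries. It covered the least of any list in 277 of the 819 regions (33.8%) and in 317 of the 553 regions with a core (57.3%) its peaks began farthest inside the region or ended farthest inside it. H3 of wild-type replicate 2 had the widest coverage and defined 371 of the outer borders of the regions (22.6%). Without H3K27me3 of wild-type replicate 2, 82.0% of the regions found in the other 7 lists had a core, with a median of 545 bp.

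**Figure D3:**
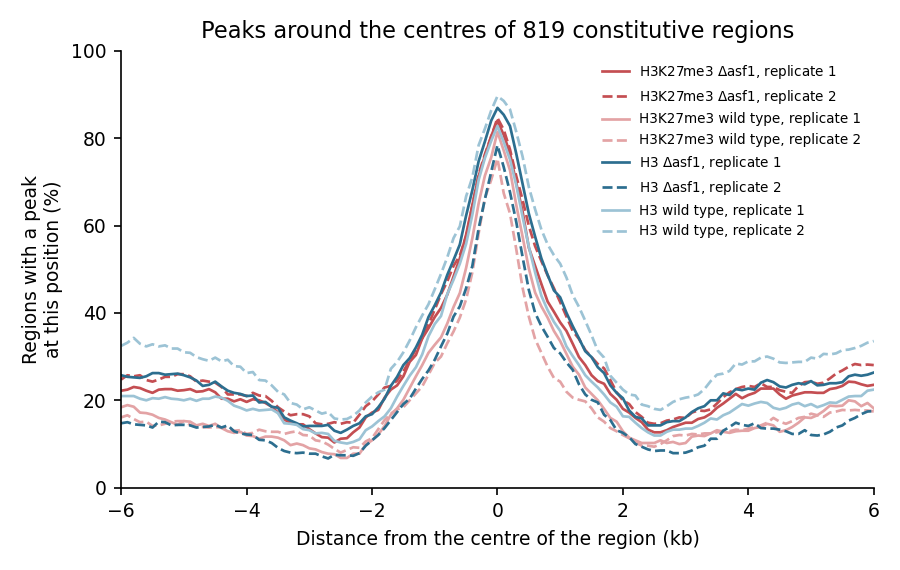
Percentage of the 819 constitutive regions with a peak at each distance (kb) from the centre of the core, or from the midpoint of the region where there was no core, for each of the 8 libraries (red, H3K27me3; blue, H3; darker, Δasf1; dashed, replicate 2). At the centre the values range from 75.3% in H3K27me3 of wild-type replicate 2 to 89.6% in H3 of wild-type replicate 2, and all curves have a minimum between 2 and 3 kb from the centre.

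All libraries had a dip on either side of the constitutive regions. At the centre, 84.0% and 84.6% of the regions had an H3K27me3 peak in Δasf1, against 81.4% and 75.3% in the wild type. The profiles were lowest between 2400 and 2800 bp from the centre, with 6.72% to 15.6% of the regions under a peak. At 6 kb the values were 16.2% to 33.0%, close to the share of the genome each list covered. A stretch without peaks at this distance follows in part from the definition, since a peak touching the region would have been merged with it and the total width is limited.

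Constitutive regions were found on all 7 chromosomes. Chromosomes 1 to 7 had 188, 112, 128, 99, 107, 101 and 84 regions. Per Mb this was 17.5 on chromosome 2, the lowest value, and 23.7 on chromosome 6, the highest, with 20.8 for the whole genome. The median width ranged from 3131 bp on chromosome 6 to 3598 bp on chromosome 4, and the share of regions with a core from 62.8% on chromosome 1 to 75.2% on chromosome 6. Every chromosome thus held regions with and without a core.

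Neighbouring constitutive regions were a median of 31.8 kb apart between midpoints (812 distances, quartiles 13.98 and 61.3 kb) and a mean of 45.6 kb. The shortest distance was 2.48 kb and the longest 297 kb. In all, 139 distances (17.1%) were under 10 kb and 88 (10.8%) over 100 kb. The coefficient of variation was 0.969, against 1.00 to 1.13 for the classes of regions with peaks in 1 to 7 lists. In windows of 100 kb, the mean was 2.09 regions and the variance 2.17 over 392 windows. There were 60 windows without a constitutive region, and the fullest window, 2600001 to 2700000 of chromosome 5, held 7. The mean and the variance of the counts per window were thus close to each other.

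The same was seen in the order of regions. Of the 819 constitutive regions, 84 (10.3%) were directly followed by another, and 10.3% of all 7932 regions were constitutive regions under 5 kb. The longest run of consecutive constitutive regions was 5. By the gap between their edges, the closest pair was chr5:1010477-1013671 and chr5:1014308-1017031, separated by 636 bp (SMAC4_08874 and SMAC4_08873). The shortest distance between midpoints, 2.48 kb, belonged to another pair, on chromosome 7. With the 572 constitutive regions of 5 kb or more included, the median distance fell to 19.8 kb.

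The widest gap without a constitutive region under 5 kb was 292 kb long, from 4190965 to 4482977 of chromosome 4. It was not free of peaks, since it contained 63 other regions and 75 genes. H3K27me3 peaks covered 17.0% and 18.9% of it in Δasf1, against 13.0% and 3.78% in the wild type, and H3 peaks 20.8% and 14.8% in Δasf1, against 18.7% and 28.3% in the wild type. The widest gaps of chromosomes 1, 2, 3, 5, 6 and 7 measured 246, 265, 203, 179, 175 and 167 kb, and each held at least 30 other regions.

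**Figure D4:**
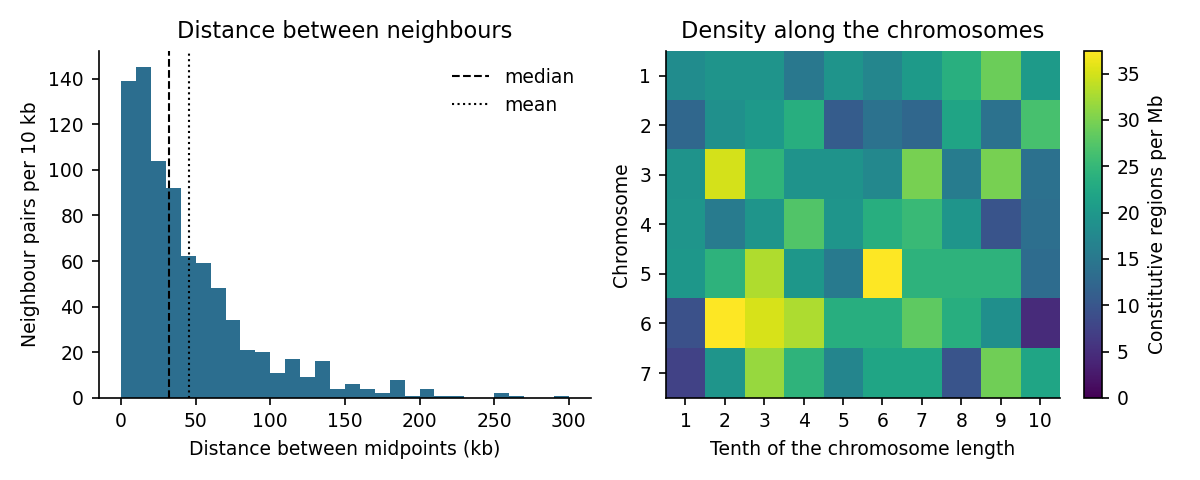
Left, number of pairs of neighbouring constitutive regions by the distance between their midpoints in kb, with the median (31.8 kb, dashed) and the mean (45.6 kb, dotted). Right, constitutive regions per Mb (colour) in 10 equal parts of the length of each of the 7 chromosomes; no part is empty, and the outermost parts hold 62 and 68 regions over all chromosomes.

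Constitutive regions were scarce at chromosome ends. Only 1 of the 819 (0.122%) had its midpoint within 100 kb of an end, against 134 of the 6118 other regions under 5 kb (2.19%), and these zones make up 3.55% of the genome. The classes with peaks in most lists were also scarce there, with 0.672% of 7-list and 1.04% of 6-list regions, whereas 61 of the 134 were 1-list regions (4.50% of their class). The exception among the constitutive regions was chr3:5623010-5627939 with SMAC4_07280, 88.4 kb from the end of the chromosome and with a core of 756 bp. The other 13 chromosome ends had none. Within 200 kb there were 15 regions (1.83%, with 7.10% of the genome), within 300 kb 42 (5.13%, with 10.6%) and within 500 kb 108 (13.2%, with 17.7%). The shares thus approached that of the genome with distance.

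The width limit bears on this result, because the ends were covered by wide regions. Within 100 kb of an end, 55.2% of the length lay in merged regions of 5 kb or more and 16.4% in regions under 5 kb, against 20.8% and 33.5% in the whole genome. Of the 36 wide regions with a midpoint there, 20 had a peak in all 8 lists. With no width limit, 1.51% of the 1391 constitutive regions were within 100 kb of an end, beside 171 of all 7932 merged regions. Without H3K27me3 of wild-type replicate 2, 0.576% of the regions under 5 kb found in the other 7 lists were.

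Most of the constitutive length lay in genes. Genes made up 77.1% of it, against 70.6% of other regions under 5 kb, 58.2% of the genome and 43.7% of the genome outside all peaks. Among the other regions, the share was 77.0% in 6-list and 77.6% in 7-list regions, close to that of the constitutive ones. On the individual chromosomes, the share of the constitutive length was 69.9% to 82.0%. In all, 809 constitutive regions (98.8%) overlapped a protein-coding gene. Any gene was overlapped by 84.2% of other regions, which were narrower, and by 96.8% of the 7-list regions among them. A single gene was overlapped by 437 constitutive regions, 2 genes by 292 and 3 or 4 genes by 80. These were 1263 different genes, of 10804 in the gene table, which gives locus tags and no symbols or strand.

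Cores were richer in genes than the rest. Genes made up 89.8% of the core length, against 76.2% of the same regions outside their core. On single chromosomes, 84.7% to 96.7% of the core length was in genes. Within the constitutive regions the gene share followed the number of lists, with 63.4% for bases under a peak in 1 list, 75.2% in 4 lists and 85.4% in 7 lists. The same trend was seen in other regions under 5 kb, with 59.5%, 78.7% and 90.1% for 1, 4 and 7 lists. Stretches common to the 7 lists of a 7-list region thus had a gene share close to that of the cores. In regions of 5 kb or more, the share was 86.0% for bases under 7 lists and lower, 78.4%, under 8. In the whole genome these values were 87.0% and 83.7%.

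**Figure D5:**
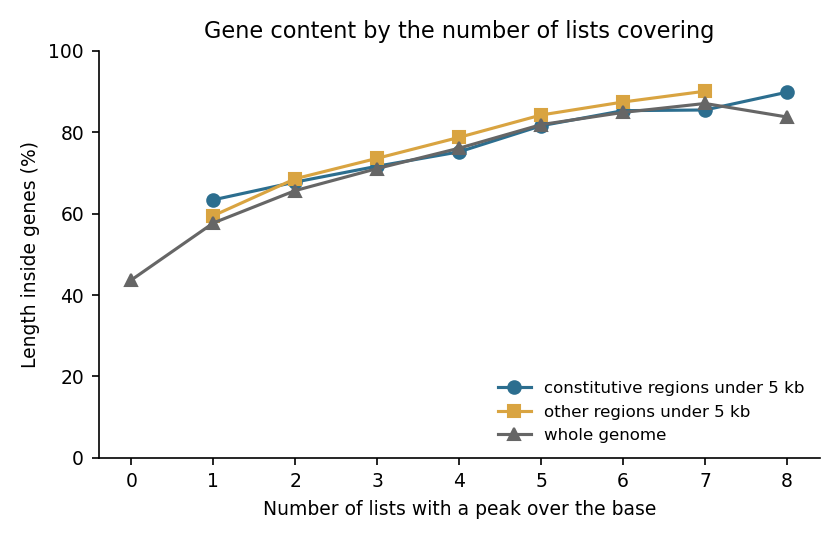
Percentage of length inside genes by the number of lists with a peak over the base, for constitutive regions under 5 kb (circles), other regions under 5 kb (squares) and the whole genome (triangles). The share is 43.7% where no list has a peak and 89.8% in the constitutive cores, and constitutive and other regions follow similar curves. The curve of the whole genome falls from 87.0% at 7 lists to 83.7% at 8.

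The centre of 696 regions (85.0%), taken as the middle of the core or else of the region, lay in a gene, always a protein-coding one and a different one each time. Of these centres, 64.9% lay in the middle 50% of the gene length. When region midpoints were used throughout, 79.4% of constitutive regions and 82.6% of 7-list regions were centred in a gene. Of the midpoints in genes, 61.4% of the constitutive regions lay in the middle 50% of the gene length. This was 63.4% for 7-list, 66.9% for 6-list and 57.3% for 1-list regions, so the constitutive regions did not stand out. The genes at the centres had a median length of 2442.5 bp, against 1927 bp for all protein-coding genes. Longer genes offer more positions, and the median weighted by gene length was 2737 bp.

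Genes for tRNAs were rarely part of constitutive regions. Of the 445 tRNA genes in the table, only SMAC4_13026 in chr1:1929644-1933411 and SMAC4_13001 in chr1:237109-242020 were overlapped. SMAC4_13001 lay outside the core of its region. The core of the other region was in 2 parts, and SMAC4_13026 overlapped the span between their outer limits. Whether it lay in a part or between the parts was not examined. The 2 regions came to 0.747 regions with a tRNA gene per Mb, against 2.28 per Mb in other regions under 5 kb. As a share of regions it was 0.244% (2 regions), against 0.392% (24 regions). No constitutive region overlapped an rRNA gene, and the rRNA gene array on chromosome 2 contained only wide regions, 2 of them with peaks in all lists.

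Only 10 constitutive regions overlapped no gene. Their distances to the nearest gene ranged from 130 bp to 3511 bp. The most distant was chr5:903854-905649, with a core of 699 bp, whose nearest gene was SMAC4_13770. The longest cores outside genes measured 1212 bp in chr2:6113831-6115649 and 1140 bp in chr1:7888589-7892097. Such regions were thus not limited to short cores, and 4 of the 10 had no core.

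The area of chromosome 2 that is partly duplicated in Δasf1 was examined separately. It consists of duplicated parts on either side of a middle stretch that is not duplicated. The span of the genes listed as duplicated was 576 kb long and held 12 constitutive regions, or 20.8 per Mb, as in the whole genome. Of these, 7 lay in the duplicated parts and 5 in the stretch between them.

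In the 7 regions of the duplicated parts, H3 peaks covered 83.1% and 69.5% of the length in Δasf1, against 49.9% and 42.4% in the wild type. H3K27me3 peaks covered 65.3% and 77.0% of them in Δasf1, against 40.0% and 53.3% in the wild type. Both Δasf1 libraries thus lay above both wild-type libraries for each antibody. In the 5 regions of the middle stretch the strains overlapped, with H3 covering 85.1% and 48.9% in Δasf1, against 32.2% and 49.04% in the wild type, and H3K27me3 covering 56.7% and 33.4% in Δasf1, against 27.96% and 64.6% in the wild type. In the other 807 regions H3 peaks covered 61.6% and 44.9% in Δasf1, against 54.6% and 69.1% in the wild type. H3K27me3 peaks covered 56.7% and 60.5% of these 807 in Δasf1, against 49.6% and 41.6% in the wild type. For H3K27me3 the strains thus did not overlap outside the duplicated area either. The part of the copy number in these values was not tested.

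Some genes of the segment have been annotated by product. The region chr2:687053-691490 overlapped genes for an alkyl hydroperoxide reductase (SMAC4_05546), an enzyme that detoxifies peroxides, for a subunit of NADH dehydrogenase (SMAC4_05547), the entry complex of the respiratory chain, and for an RNA helicase (SMAC4_12899). H3 peaks covered 99.4% and 71.3% of it in Δasf1, against 78.9% and 44.2% in the wild type. H3K27me3 peaks covered 97.2% and 96.7% in Δasf1, against 36.6% and 96.8% in the wild type, so only wild-type replicate 1 was low. Further regions lay over genes for a formyl transferase and a dynein regulator (chr2:793925-798641, SMAC4_05574 and SMAC4_05575), a branched-chain aminotransferase of amino acid metabolism (chr2:864429-866390, SMAC4_05595, core of 790 bp), a glycosyltransferase (chr2:1146723-1151123, SMAC4_04376) and a glycoside hydrolase (chr2:1154073-1157367, SMAC4_04377, without a core).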

How the data were processed

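For every precipitated library (8 in all) the authors deposited 1 table of broad peaks. The submitters' processing notes name fastp, Bowtie2 and MACS2, without versions or settings. The deposited columns per peak are a score, a fold enrichment over background (a ratio), a −log10 p-value and a −log10 q-value. The 8 input samples were not used. The smallest −log10 q differed between replicate numbers, so differences within each number are given. Fold enrichments are not scaled between lists. They were divided by the median of the list for the comparison of strains, and used as deposited to find each region's weakest list and in 1 alternative.

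Peaks overlapping by 1 bp or more were merged with SciPy 1.17.1, pandas 2.3.3 and NumPy 2.4.6 under Python 3.11.15, and plotted with matplotlib 3.10.9. The scripts were tested on simulated data. Covered share is the percentage of the length of a region, or of the summed length of a set of regions, under peaks of a library. Fold enrichment of a region is that of its highest peak in a list. Distances to chromosome ends were counted from the start of the coordinates and from the last position of any gene or peak on the chromosome. Strains were compared by exact two-sided permutation over 4 libraries, which cannot reach 0.05. The background for regions whose strains did not overlap was all regions under 5 kb with peaks in all 4 lists of the antibody.

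Coordinates are those of assembly Sm_v04_wtN, counted from 1. Genes came from a RefSeq table of another assembly name, ASM3387043v1, and no positions of genes are printed. When the regions of each chromosome were slid along the genes in steps of 100 bp, the best offset for gene content was at most 100 bp on all 7 chromosomes (69.9% to 82.0% unshifted, 52.6% to 62.5% at 3 to 5 kb). Of the 112 genes listed as duplicated by the study, 106 were matched by older locus tags. Regions were named by rule: the 3 longest cores, highest weakest-list folds and narrowest regions, the longest core and widest gap per chromosome, the closest pair, and the 2 largest strain differences per antibody and direction. Regions without genes, with tRNA genes, at an end or in the duplicated segment were named after their values were seen. The regions, lists and tests were chosen with earlier results of these data known. Alternatives were other merging, cutoffs, widths and distances, genes with 1 kb on either side, omission of single libraries, and a replicate block.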

Additional observations from a re-analysis of the deposited data

How the results depend on the processing

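The number of constitutive regions depended on the peak lists and limits, 131 at a common −log10 q of 2.05, 119 with the upper 50% of peaks, 463 with the 4401 top peaks of each list, 67 with 50% of the region covered in each list, 319 and 1275 with width limits of 3 and 10 kb, and 1391 without a limit. It was 858 to 1389 without each list in turn. In the order common cutoff, upper 50%, equal numbers and 50% covered, the share with a core was 83.2%, 86.6%, 75.4% and 100%, the median core 623, 607, 565 and 824 bp, and the median distance 206, 211, 57.4 and 344 kb. With the 3 kb limit the share with a core was 83.7% and the distance 79.3 kb. The distance was 20.3 kb with the 10 kb limit, 19.8 kb without a limit and 35.1 kb with peaks within 1 kb joined. Without each list in turn, the share with a core was 69.3% to 82.0%, the median core 451 to 545 bp and the distance 18.5 to 30.4 kb.

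The share of core length in genes was 86.1% at the common cutoff, 92.7% with the upper 50% of peaks, 92.3% with the 3 kb limit, 83.7% without a limit, 97.8% with 1 kb on either side of genes, and 87.5% to 90.4% without each list. The share near ends was 0% at the common cutoff, with the upper 50% of peaks, with 50% covered, with the 3 kb limit and within 50 kb of an end, 1.51% without a width limit, 1.83% within 200 kb, and 0.104% to 0.646% without each list.

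The H3K27me3 difference in covered share kept its direction under every alternative listed, at 4.46 points without a width limit, 7.59 points with 50% covered, and 10.4 to 16.2 points without each list. The H3 difference was −16.8 to 0.0350 points without each list, and reversed only without H3 of Δasf1 replicate 2. The log2 fold difference was 0.013 to 0.033 for H3K27me3 without each list, 0.038 with the upper 50% of peaks and 0.050 without division by the median of the list. Within replicate 1 it turned to −0.0013 at the common cutoff and −0.0027 with equal numbers, and the difference over all 4 libraries then had an exact permutation p = 1. For H3 it was −0.018 to 0.0064, and it reversed to 0.0062 at the common cutoff, 0.012 with the upper 50% of peaks, 0.0025 with equal numbers and 0.021 without division by the median of the list. The cause was not tested.

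Regions with H3K27me3 higher in both Δasf1 libraries were 29.9% with 50% covered and 29.8% with the 3 kb limit, and those with H3K27me3 lower 5.83% with equal numbers, 2.99% with 50% covered and 10.1% without a limit. Regions with H3 higher were 10.9% with the upper 50% of peaks and 11.9% with 50% covered, and those with H3 lower 11.5% at the common cutoff, 9.24% with the upper 50%, 17.7% with equal numbers, 17.9% with 50% covered and 16.3% with the 3 kb limit. Leaving out each list of the other antibody in turn gave 32.0% to 35.5% and 7.35% to 8.03% for H3K27me3 higher and lower, and 7.56% to 9.18% and 19.9% to 21.1% for H3. The lists of the same antibody were not left out for these shares, which need both replicates of both strains.

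Replicate numbers are not stated to pair the cultures, and deviations of same-numbered libraries correlated by 0.022 to 0.163 over the regions. With a replicate block, the covered-share difference stayed at 13.0 points for H3K27me3 (exact permutation p = 0.5, the smallest of 4 assignments) and −7.99 points for H3 (exact permutation p = 1). Peak lists carry no read depth, so nothing can be said of depth as a limit of any value.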
